A study of Mus musculus with 12 samples.

Results

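The histone cluster genes are the genes of the replication-dependent histone clusters of the mouse genome, measured here in poly(A)-selected RNA of primary fibroblasts. They were taken as every row of the count tables whose symbol begins with Hist1h, Hist2h, Hist3h or Hist4h. Of 70 such symbols in the annotation, 68 had a row in the tables, 6 of these had no counts in any library, and the remaining 62 genes are described here, out of 49315 genes in the tables. They comprise 6 H1, 17 H2A, 16 H2B, 10 H3 and 13 H4 genes, and 52 of them lie in the Hist1 cluster on chromosome 13.

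The cells were primary mouse adult fibroblasts (MAFs) grown from ear tissue of adult females, either C57BL/6J wild-type (WT) mice or Bmal1-/- (KO) mice, in which the gene of the circadian transcription factor BMAL1 is disrupted. Control cells received a sham irradiation and senescent cells received 20 Gy of x-rays and were then kept in culture until they had become senescent. All 4 groups, control and senescent cells of each genotype, were treated with 100 nM dexamethasone, which sets the phase of the circadian clock, and were collected 12 hours later, with 3 libraries per group and 12 in all. The ages of the mice were not stated in the labels, and neither was whether the 3 libraries of a group came from separate cultures or mice, so p-values measure the spread between these libraries, which may be technical. The WT and KO libraries were deposited as separate tables, so genotype cannot be told apart from how each set of cells was handled.

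Histones package DNA into nucleosomes, with H2A, H2B, H3 and H4 forming the core and the linker histone H1 binding the DNA between cores. The replication-dependent genes are clustered, are usually without introns and are transcribed mainly in S phase, when new DNA has to be packaged. Their mRNAs usually end just after a conserved stem-loop that is bound by the stem-loop binding protein SLBP, and so carry no poly(A) tail, but polyadenylated forms are known in cells that have left the cell cycle. A protocol that selects poly(A) RNA, as used here, therefore reports mainly the polyadenylated forms, and the summed level of these genes is not the total histone mRNA of the cells.

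The stem-loop was searched in the transcript models of GENCODE M21 (GRCm38) as a run of 16 bases that starts with GG, pairs 6 bases with 6, and encloses a loop of 4 bases that starts with TT. It was found in 39 of the 62 histone cluster genes and in 107 of 21669 other protein-coding genes (0.494%). The sequences below are the matches of some members, chosen for display. The search itself set the opening GG, the pairing and the TT of the loop, so their likeness follows in part from it. The stem-loop is in capitals and the flanking bases are in lower case.
Hist1h1c: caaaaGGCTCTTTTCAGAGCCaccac
Hist1h2be: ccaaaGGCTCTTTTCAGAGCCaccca
Hist1h3b: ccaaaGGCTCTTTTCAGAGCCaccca
Hist1h2ao: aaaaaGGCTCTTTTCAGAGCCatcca
Hist1h4m: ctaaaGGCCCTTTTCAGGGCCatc
Hist1h4i: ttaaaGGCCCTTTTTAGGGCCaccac
Hist1h2bb: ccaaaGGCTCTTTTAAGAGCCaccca
The first form, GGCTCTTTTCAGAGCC, was present in 21 members of the H1, H2A, H2B and H3 classes. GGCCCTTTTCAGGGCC was found in 7 members, all of them H4 genes. The rest of the 39 carried other forms, among them those of Hist1h4i and Hist1h2bb above. In the models of the other 23 members, among them the spliced model of Hist1h2bc, no such run was found. That says only that these letters are not in the annotated transcript.

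Library totals were 23923030 to 31736083 counted reads, and 3 reads corresponded to 0.101 to 0.135 CPM (counts scaled to a common library total). Levels are CPM corrected for composition with edgeR's TMM factors, with the SD over n = 3 libraries. The targeted gene, Arntl (the symbol of Bmal1), was 31.5 ± 1.71 CPM in WT control, 13.2 ± 1.82 in KO control, 36.1 ± 1.10 in WT senescent and 26.6 ± 1.13 in KO senescent cells. Within each condition the KO libraries were all below the WT libraries, but reads of the gene were still counted in all 6 KO libraries. Of the 10 fibroblast markers listed, Col1a1, Col1a2, Pdgfra and Vim were abundant in every library, and the whole list is described with the other markers.

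Senescent cells of both genotypes carried more reads of the histone cluster genes. Summed over the 62 genes, the level was 131, 135 and 131 CPM in the WT control libraries and 391, 405 and 407 CPM in the WT senescent libraries. It was 130, 127 and 121 CPM in the KO control libraries and 383, 435 and 412 CPM in the KO senescent libraries. Control and senescent libraries did not overlap in either genotype. The KO control libraries lay slightly below the WT control libraries, and the senescent libraries of the genotypes overlapped. The linker histone gene Hist1h1c and the H2B gene Hist1h2bc together made up 66.8% to 76.2% of the sum. Without them, the sum was 36.1 ± 3.30 CPM in WT control, 111 ± 2.07 in WT senescent, 32.4 ± 2.84 in KO control and 133 ± 5.52 in KO senescent cells. In bulk RNA such a sum is a share of each library, and fewer cells of a type cannot be told apart from less RNA per cell.

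**Figure D1:**
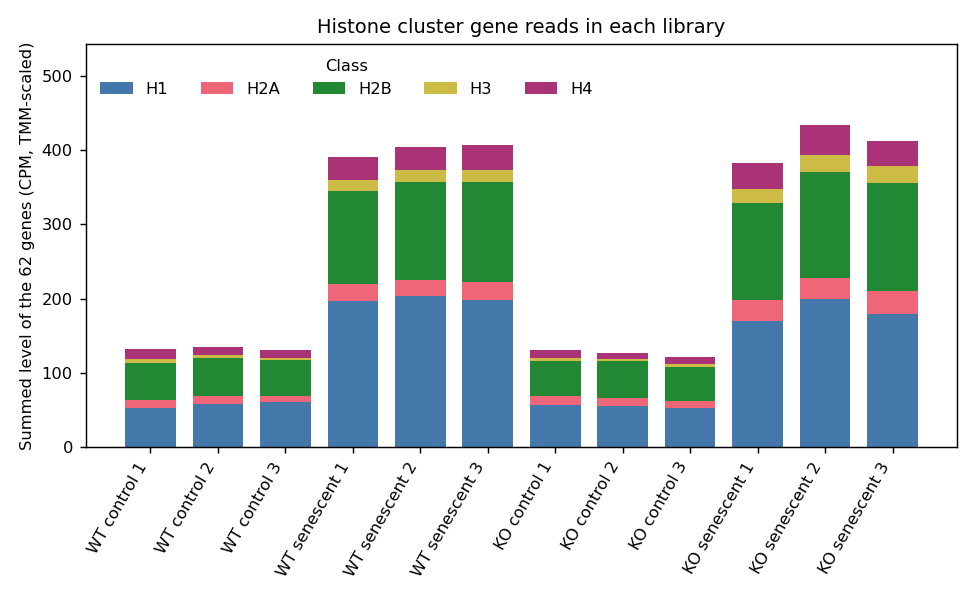
Each bar is a library and its height is the summed level of the 62 histone cluster genes in TMM-scaled CPM, split by histone class. The 6 control bars end between 121 and 135 CPM and the 6 senescent bars between 383 and 435 CPM, and H1 and H2B make up most of every bar.

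Individual genes were tested with edgeR's quasi-likelihood test in a fit over 17416 genes and all 12 libraries. A gene was called higher or lower at a Benjamini-Hochberg adjusted p under 0.05, taken over all genes tested, together with a log2 fold change beyond 1 in either direction. Of the 62 members, 39 passed the filter on low counts, which asked for about 0.382 CPM in at least 3 libraries. The filter was met by the control libraries alone for 20 of the 39, by the senescent libraries only for 18, and for Hist1h1a by the libraries of both conditions together. The 18 genes that passed through their senescent libraries were favoured to be higher there. Hist1h2ao, which reached the level in 6 control and 0 senescent libraries, was favoured in the other direction. Counts over the members that passed thus describe them and are no evidence of a direction.

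Among the 20 members that met the filter in control cells, 13 were higher and 1 was lower in WT senescent cells, and the median log2 fold change was 1.92. In KO cells, 16 of the 20 were higher and 1 was lower, with a median of 2.27. Over all 39 tested members, 29 were higher and 1 was lower in WT senescent cells, beside 11.6% of all genes called higher and 5.9% called lower. In KO senescent cells 33 of the 39 were higher and 1 was lower, beside 11.2% and 7.58% of all genes. The median log2 fold change of all genes tested was 0.02 in WT and -0.003 in KO cells. All 3 senescent libraries were above all 3 control libraries for 33 of the 39 in WT, beside 33.4% of all genes, and for 36 of the 39 in KO cells, beside 30.8%. There were 29 members higher in both genotypes, 4 higher in KO only by these thresholds (Hist3h2a, Hist1h2ai, Hist1h3g and Hist1h2ae), 1 lower in both and 5 called in neither. Whether the change of these 4 genes differed between the genotypes was tested as an interaction, and their adjusted p for it was 0.559, 0.212, 0.416 and 0.156.

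**Figure D2:**
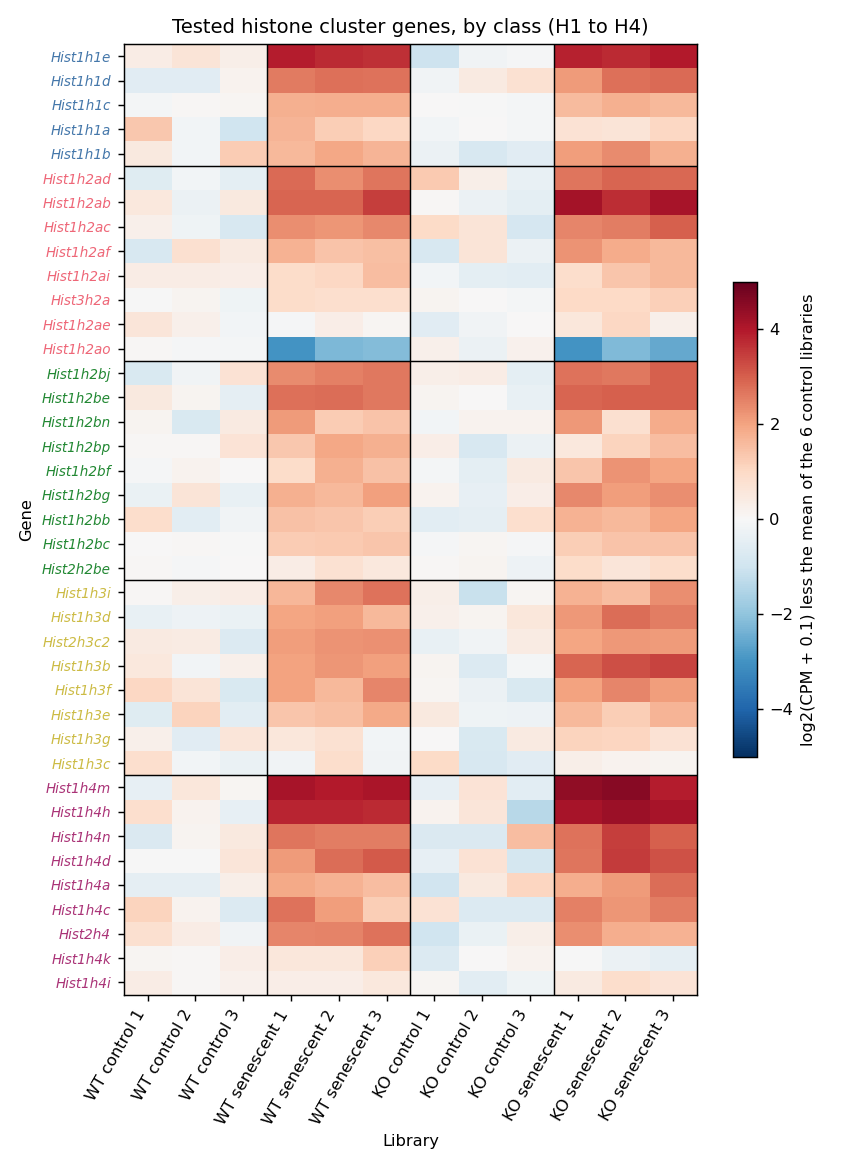
Rows are the 39 tested histone cluster genes, grouped by class with the name coloured by class, columns are the 12 libraries, and colour is log2(CPM + 0.1) less the mean of the 6 control libraries. Most rows are red in all 6 senescent columns, Hist1h2ao is blue in all 6, and Hist1h3c and Hist1h4k stay near white.

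Linker histone genes were led by Hist1h1c (chr13:23738808-23740367, GRCm38, plus strand), a somatic H1 subtype. Its level was 50.5, 56.2 and 57.7 CPM in the WT control libraries and 184, 192 and 187 CPM in the WT senescent ones. The KO control libraries held 55.2, 53.2 and 50.4 CPM and the KO senescent libraries 159, 187 and 166 CPM. All senescent libraries were above all control libraries, and the log2 fold change was 1.78 ± 0.06 (SE, adjusted p = 3.4e-15, edgeR) in WT and 1.69 ± 0.06 (adjusted p = 4.81e-15, edgeR) in KO cells, or 3.42-fold and 3.23-fold. Hist1h1e, another somatic subtype, started far lower, with 10 to 15 reads per WT control and 3 to 9 reads per KO control library, and reached 144 to 203 reads in WT and 167 to 209 in KO senescent libraries. Its log2 fold change was 3.56 ± 0.24 in WT and 4.64 ± 0.26 in KO cells, among the largest of the members in both. The exons of Hist1h1e overlap those of Hist1h2be on the same strand, and reads in the shared stretch cannot be assigned to either.

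Hist1h1d rose to 3.61 ± 0.22 CPM in WT senescent cells (control 0.369 ± 0.15, log2 3.29) and to 3.38 ± 0.83 CPM in KO senescent cells (control 0.644 ± 0.23, log2 2.39). Hist1h1b was also higher in both genotypes and is described with the interaction. Hist1h1a had 0 to 16 reads per library, and neither its WT log2 fold change of 1.28 ± 0.68 nor its KO value of 1.44 ± 0.80 passed the test (adjusted p = 0.116 and 0.133, edgeR). Without WT control replicate 1 the WT change of Hist1h1a was 3.13 with an adjusted p of 0.00618 (edgeR). Thus 4 of the 5 tested H1 genes were higher in each genotype. Over all genes tested, 11.6% were called higher in WT and 11.2% in KO senescent cells, and these shares apply to every class below. The sixth member, the testis-specific Hist1h1t, had 20 reads over all 12 libraries and was not tested.

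Of the 8 tested H2A genes, 4 were higher in WT and 7 in KO senescent cells, and Hist1h2ao was lower in both. Hist3h2a on chromosome 11 had the highest mean CPM of the class, without correction for exon length. It was 7.00, 7.90 and 6.09 CPM in WT control and 13.5, 12.7 and 12.9 CPM in WT senescent libraries. The KO libraries gave 7.84, 7.24 and 6.61 CPM in control and 14.3, 14.3 and 16.2 CPM in senescent libraries. The groups did not overlap in either genotype, and the log2 fold change lay just under the threshold in WT (0.90 ± 0.11) and just over it in KO cells (1.04 ± 0.11). The KO change was 0.98, under the threshold, in the fits that left out the library numbered 3 of either KO control or KO senescent cells. The exon of Hist3h2a overlaps Trim17 on the same strand. Hist1h2ab was 0.362, 0.163 and 0.361 CPM in WT control and 2.31, 2.36 and 3.43 CPM in WT senescent libraries. The KO control libraries gave 0.240, 0.168 and 0.129 CPM and the KO senescent libraries 5.63, 4.15 and 5.61 CPM, a log2 fold change of 4.80 ± 0.33 against 3.18 ± 0.33 in WT cells. Hist1h2ad rose by 3.42 ± 0.39 on the log2 scale in WT and by 2.41 ± 0.33 in KO cells.

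Hist1h2ao (chr13:21810465-21810944, plus strand) moved the other way. It had 18, 16 and 14 reads in the WT control libraries and 0, 2 and 2 reads in the WT senescent libraries. The KO libraries held 21, 16 and 19 reads in control and 0, 2 and 1 in senescent libraries. The groups did not overlap, and the fitted log2 fold change was -3.70 ± 0.67 (adjusted p = 7.6e-05, edgeR) in WT and -4.17 ± 0.70 (adjusted p = 2.72e-05, edgeR) in KO cells. Of the 100-base windows of its exon, 92.7% occur letter for letter, on either strand, in another annotated gene. Where its unique read pairs lay was not measured. It also overlaps a gene annotated on the opposite strand, and whether the counting used strand was not stated. Hist1h2ap, a close copy named after its values were seen and not tested because its counts were too low, had 47 reads in the 6 control libraries and 4 in the 6 senescent libraries.

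Of the 9 tested H2B genes, 8 were higher in each genotype. Hist1h2bc (chr13:23684199-23692908, plus strand) was 41.5, 42.7 and 40.5 CPM in WT control and 98.2, 102 and 107 CPM in WT senescent libraries. The KO libraries held 39.0, 43.6 and 39.5 CPM in control and 96.9, 111 and 109 CPM in senescent libraries. There was no overlap between conditions, and the change was 2.47-fold in WT (log2 1.30 ± 0.06, adjusted p = 2.75e-13, edgeR) and 2.60-fold in KO cells (log2 1.38 ± 0.06, adjusted p = 9.38e-14, edgeR). Per kilobase of exon, the level in WT senescent cells was 120 CPM for Hist1h1c and 88.7 CPM for Hist1h2bc, ahead of Hist1h4m with 20.7 CPM among the tested members. Hist1h2be was 3.18, 2.48 and 1.62 CPM in WT control and 15.7, 16.3 and 14.3 CPM in WT senescent libraries, a log2 fold change of 2.66 ± 0.16. In KO cells it was 2.48, 2.29 and 1.72 CPM in control and 17.7, 18.4 and 18.3 CPM in senescent libraries, a log2 change of 3.06 ± 0.16. Hist2h2be, from the smaller cluster on chromosome 3, changed less, with 3.17 ± 0.12 and 4.69 ± 0.66 CPM in WT and 3.15 ± 0.43 and 5.61 ± 0.66 CPM in KO cells. Its log2 fold change of 0.56 and 0.83 passed the adjusted p (0.00937 and 0.00033, edgeR) but not the fold threshold.

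Of the 8 tested H3 genes, 6 were higher in WT and 7 in KO senescent cells. Hist1h3b rose in every senescent library and is described with the interaction. Hist2h3c2 rose to 5.35 ± 0.36 CPM in WT senescent cells (control 1.20 ± 0.49, log2 2.14) and to 4.94 ± 0.34 CPM in KO senescent cells (control 1.07 ± 0.35, log2 2.22). Hist1h3d rose to 2.69 ± 0.43 CPM (control 0.503 ± 0.02) and to 4.26 ± 0.95 CPM (control 0.857 ± 0.15). Hist1h3c, in contrast, stayed at low levels, with 0.440 and 0.452 CPM in control and senescent WT cells and 0.394 and 0.431 CPM in KO cells, and was called in neither genotype.

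The H4 class held both wide changes and some of the smallest. Of its 9 tested genes, 7 were higher in each genotype. Hist1h4m (chr13:21811746-21812147, plus strand) was 0.281, 0.651 and 0.452 CPM in WT control and 8.64, 7.95 and 8.41 CPM in WT senescent libraries. In KO cells it was 0.280, 0.707 and 0.258 CPM in control and 10.9, 11.8 and 7.73 CPM in senescent libraries. The log2 fold change was 4.16 ± 0.28 (adjusted p = 9.5e-11, edgeR) and 4.54 ± 0.28 (adjusted p = 1.76e-11, edgeR), and 88.1% of the 100-base windows of Hist1h4m are shared with other genes. Hist1h4h rose to 5.02 ± 0.10 CPM in WT (control 0.356 ± 0.19, log2 3.78) and to 6.66 ± 0.50 CPM in KO cells (control 0.278 ± 0.22, log2 4.49). Hist1h4n had 0 to 9 reads per control library and 23 to 49 per senescent library, and Hist1h4d had 0 to 6 and 21 to 56, with log2 fold changes of 3.60 and 3.44 for the first and 3.24 and 4.07 for the second. Hist1h4k did not pass the test in either genotype, with log2 fold changes of 0.72 ± 0.35 and -0.16 ± 0.39.

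The overall pattern was shared by the genotypes, and a few genes rose more in KO cells. The test of the difference between the genotypes (the KO change less the WT change, an interaction term) called 3 members higher, beside 1.15% of all genes, and none lower, beside 2.51%. At an unadjusted p under 0.05 edgeR gave 5 members higher and 0 lower, and DESeq2 called 3 and 0. Hist1h3b was 1.25, 0.733 and 0.993 CPM in WT control and 3.67, 4.21 and 3.78 CPM in WT senescent libraries. In KO cells it was 0.920, 0.471 and 0.773 CPM in control and 6.87, 8.62 and 9.59 CPM in senescent libraries. The KO control libraries thus overlapped the WT control libraries, while every KO senescent library was above every WT senescent library. The log2 fold change was 1.97 ± 0.24 in WT and 3.55 ± 0.24 in KO cells, and the difference was 1.58 ± 0.35 (adjusted p = 0.00305, edgeR).

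Hist1h1b was 0.563, 0.326 and 1.04 CPM in WT control and 0.280, 0.168 and 0.215 CPM in KO control libraries. In senescent libraries it was 1.33, 1.68 and 1.43 CPM in WT and 1.89, 2.27 and 1.49 CPM in KO cells. Here the genotypes were apart in control cells and overlapped in senescent cells. The log2 fold change was 1.22 ± 0.36 in WT and 3.08 ± 0.41 in KO cells, a difference of 1.86 ± 0.56 (adjusted p = 0.0216, edgeR) that rests on 5 to 23 reads per control library. Without WT control replicate 2 the WT change was 0.89, under the fold threshold. For the difference the adjusted p was 0.092 without WT control replicate 3, and without KO control replicate 2 it was 0.0704. For Hist1h2ab the difference was 1.62 ± 0.54 (adjusted p = 0.0361, edgeR), and its adjusted p lay between 0.0618 and 0.121 when any of 8 libraries was left out (replicates 1 and 3 of WT control, 1 and 2 of WT senescent, 2 and 3 of KO control, 1 and 3 of KO senescent). Hist1h4i had the highest mean CPM of the H4 genes, without correction for exon length. It was 8.53 ± 1.02 CPM in WT control, 9.70 ± 0.69 in WT senescent, 6.41 ± 1.44 in KO control and 11.9 ± 1.86 in KO senescent cells. Its difference of 0.71 ± 0.21 passed the adjusted p (0.0217, edgeR) but not the fold threshold. By adjusted p alone 4 members thus rose more in KO cells, beside 9.24% of all genes.

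**Figure D3:**
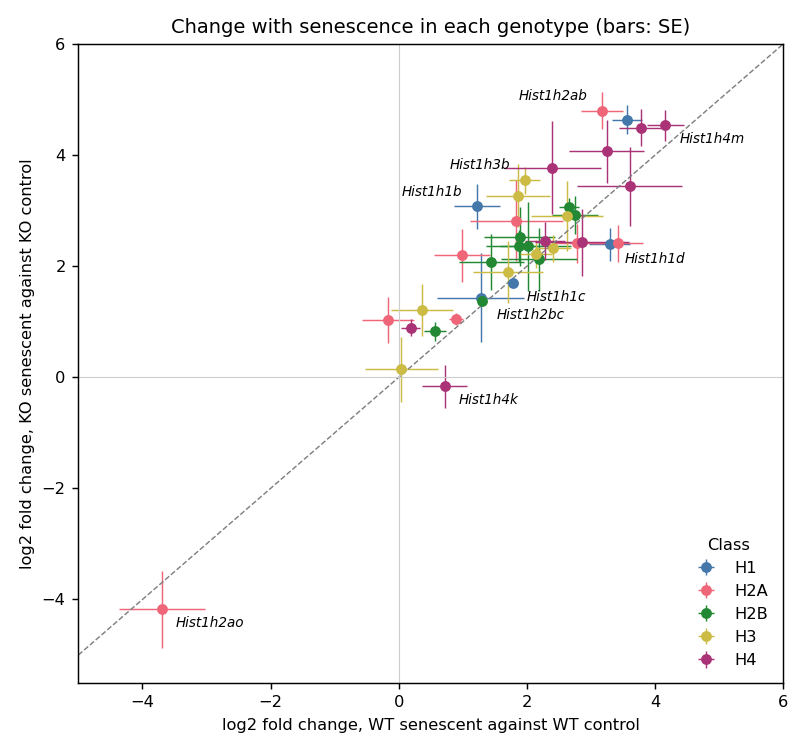
Each point is a tested histone cluster gene, coloured by class, at its log2 fold change with senescence in WT cells (horizontal) and in KO cells (vertical), with bars of 1 SE and the line of equal change dashed. Most points lie in the upper right near the line, Hist1h3b, Hist1h1b and Hist1h2ab lie above it, and Hist1h2ao lies alone at the lower left.

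**Figure D4:**
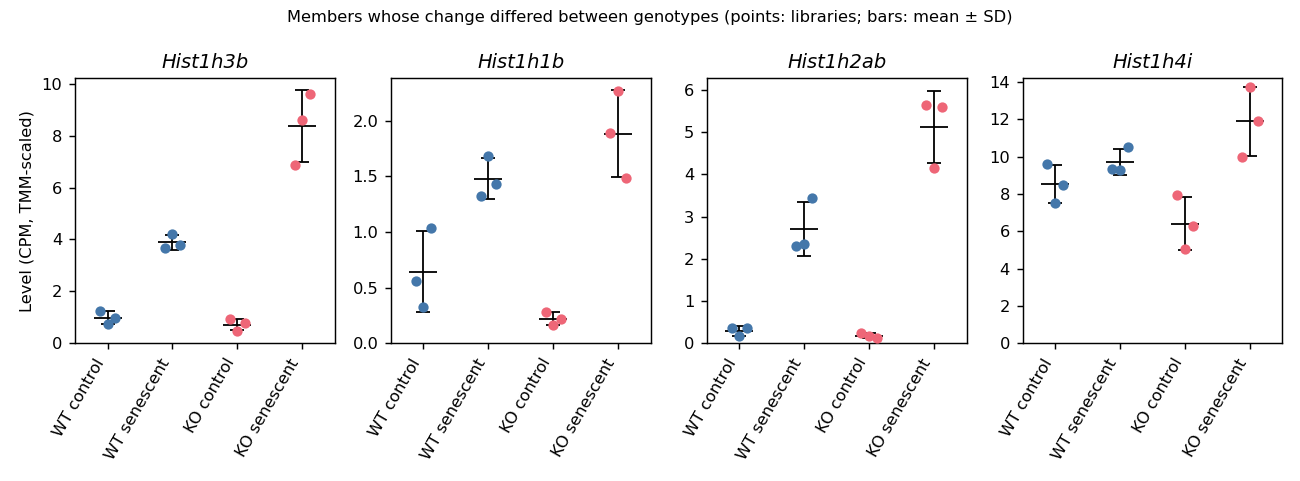
Levels in TMM-scaled CPM of the 4 members whose change differed between genotypes by adjusted p, with a point for each of the 3 libraries of a group and bars for the mean and SD. In the panels of Hist1h3b and Hist1h2ab the KO senescent points stand above all others, while in that of Hist1h1b the KO control points are the lowest.

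Between genotypes within a condition few members differed. In control cells 1 member was lower in KO (Hist1h1b, log2 fold change -1.52 ± 0.46, adjusted p = 0.0329, edgeR), beside 1.18% of all genes called lower. Without WT control replicate 1 or 3 or KO control replicate 2 or 3 its adjusted p was 0.0616, 0.197, 0.136 and 0.0895. No member was called higher in KO control cells by edgeR or DESeq2, beside 1.36% of all genes, and 3 had an unadjusted p under 0.05 in that direction. In senescent cells Hist1h3b was higher in KO (1.10 ± 0.20, adjusted p = 0.000263, edgeR), beside 1.29% of all genes called higher. Hist1h4k was lower (-1.18 ± 0.36, adjusted p = 0.0201, edgeR), beside 2.19% called lower, with 29, 29 and 41 reads in the WT and 16, 14 and 13 reads in the KO senescent libraries. The call for Hist1h3b missed the fold threshold without KO senescent replicate 3 (0.99), and that for Hist1h4k had an adjusted p of 0.128, 0.0563 and 0.085 (edgeR) without WT senescent replicate 3, KO senescent replicate 2 and KO senescent replicate 3. With adjusted p alone 3 members were higher in KO senescent cells, beside 11.9% of all genes. By these shares the histone cluster genes were close to the rest of the genes tested in both genotype comparisons. For the abundant pair the intervals were narrow. The KO less WT difference of Hist1h1c in senescent cells was -0.14 on the log2 scale with a 95% interval of -0.26 to -0.02, and that of Hist1h2bc was 0.05 with an interval of -0.07 to 0.16.

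Genes tied to S phase moved in the other direction. All 27 S phase genes of a list of replication and cyclin genes were called lower in WT and in KO senescent cells, beside 5.9% and 7.58% of all genes. Their median log2 fold changes were -2.37 and -2.63. Pcna, the sliding clamp of DNA polymerase, was 236 ± 20.4 CPM in WT control and fell to 67.4 ± 3.18 CPM, and was 227 ± 16.5 CPM in KO control and fell to 67.0 ± 3.51 CPM. The S phase cyclin Ccna2 fell to 12.8 ± 0.41 CPM in WT senescent cells, where the control level was 157 ± 25.0, and to 7.88 ± 1.27 in KO senescent cells, where it was 164 ± 16.1. The proliferation marker Mki67 dropped to 45.6 ± 0.78 CPM against a WT control level of 593 ± 83.4, and to 26.5 ± 8.82 CPM against a KO control level of 580 ± 29.7. The licensing factors Cdc6 and Mcm10 fell as well, with log2 fold changes of -3.17 and -2.99 in WT and -3.50 and -3.61 in KO cells. Thus members of the histone clusters were higher in the same libraries in which these S phase genes were lower.

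A list of 11 histone genes outside the clusters held mainly variants with polyadenylated mRNA, and also Cenpa, which is expressed mostly late in the cell cycle, and H2afx, which makes a stem-loop mRNA as well as a polyadenylated one. In WT senescent cells 4 were lower (H2afz, H2afx, H1fx and Cenpa), beside 5.9% of all genes. In KO senescent cells these and H2afy2 and H1f0 were lower, 6 in all, beside 7.58% of all genes. None was called higher by edgeR or DESeq2. In edgeR 1 (H2afj) was higher by adjusted p alone in each genotype and missed the fold threshold. The variant H2afz (H2A.Z) fell to 73.2 ± 3.55 CPM in WT senescent cells (control 298 ± 38.3) and to 73.8 ± 1.43 in KO senescent cells (control 288 ± 30.7). The centromeric Cenpa fell to 9.16 ± 0.37 CPM (control 63.3 ± 7.48) and to 5.34 ± 0.28 CPM (control 65.9 ± 9.43). The linker histone H1f0 was 224 ± 4.37 CPM in WT control and 146 ± 4.91 in WT senescent cells, a log2 change of -0.62 that missed the fold threshold, and fell to 124 ± 13.9 CPM in KO senescent cells against 283 ± 7.63 in KO control, a change of -1.20. H3f3b, which encodes H3.3, had log2 fold changes of -0.46 and -0.65. The exception in sign was H2afj, which was 51.4 ± 4.51 and 71.7 ± 3.59 CPM in WT and 48.5 ± 1.68 and 72.3 ± 7.82 CPM in KO cells, with log2 changes of 0.48 and 0.58 that were under the fold threshold.

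Of 23 genes for the synthesis and 3′ end processing of histone mRNA, 4 were called lower in each genotype, beside 5.9% and 7.58% of all genes. None was called higher by edgeR or DESeq2. At an unadjusted p under 0.05 there were 0 higher and 14 lower in WT and 4 higher and 14 lower in KO cells. By adjusted p alone 13 were lower in each genotype, beside 27.0% and 28.6% of all genes. The 4 higher in KO cells also passed the adjusted p. Slbp, whose product binds the stem-loop, fell to 24.2 ± 1.22 CPM in WT senescent cells (control 69.8 ± 7.65, log2 -1.53 ± 0.08) and to 22.3 ± 0.84 CPM in KO senescent cells (control 71.5 ± 3.99, log2 -1.68 ± 0.08). The S phase kinase Cdk2 fell with log2 fold changes of -1.94 and -2.34. Npat, the coactivator of the histone clusters, had log2 fold changes of -0.56 and -0.65, which passed the adjusted p and not the fold threshold. Of the Sm-like proteins of the U7 particle that cuts histone pre-mRNA, Lsm11 had log2 fold changes of -1.40 in WT and -0.78 in KO cells, and Lsm10 had -0.18 and -0.11 and did not pass the test. Of 24 histone chaperone and assembly genes, 8 were called lower in each genotype, beside the same 5.9% and 7.58% of all genes. By adjusted p alone 22 were lower in WT and 20 in KO cells, beside 27.0% and 28.6%. The largest called falls were those of Asf1b (log2 -3.19 and -3.68) and Chaf1b (-2.54 and -2.79).

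**Figure D5:**
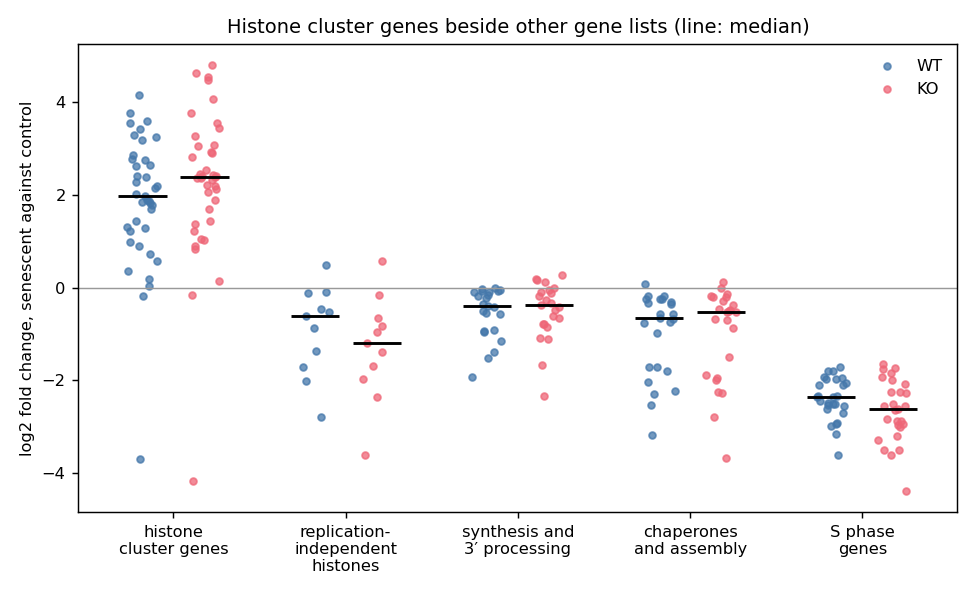
Points are genes at their log2 fold change of senescent against control cells in WT (blue) and KO (red), for the 39 tested histone cluster genes and 4 other lists, with a line at each median. The medians of the histone cluster genes are 1.97 and 2.39, those of the S phase genes are -2.37 and -2.63, and those of the other 3 lists lie between -1.20 and -0.37.

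RNAs that have no poly(A) tail were read as a measure of how strictly each library was poly(A)-selected. The summed count of 10 such RNAs, among them Rn7sk, Rmrp and Rpph1, was 26 to 118 in 11 libraries and 990 in KO senescent replicate 1. That is 0.943 to 4.32 CPM against 38.2 CPM. In WT senescent replicates 1 to 3 these RNAs were at 2.69, 1.65 and 4.32 CPM, beside histone sums of 391, 405 and 407 CPM. In KO senescent replicates 1 to 3 they were at 38.2, 4.19 and 1.52 CPM, beside sums of 383, 435 and 412 CPM. The range of these RNAs was 1.06 to 1.35 CPM in WT control, 1.65 to 4.32 in WT senescent, 0.943 to 2.02 in KO control and 1.52 to 38.2 CPM in KO senescent libraries, so they were higher in all WT senescent than in all WT control libraries and overlapped between the conditions in KO cells, and their part in the histone result was not tested. Without KO senescent replicate 1, 32 members were higher and 1 lower in KO senescent cells.

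The markers of other cell types were mostly low, with the chondrocyte list as an exception, and several lists moved with senescence. Summed over 6 chondrocyte markers, among them Col2a1 and Acan, the level was 7147 to 8819 CPM in WT control, 1963 to 2281 in WT senescent, 4760 to 6449 in KO control and 634.5 to 736 CPM in KO senescent libraries. The sum of 10 fibroblast markers in WT control libraries was 58640 to 62750 CPM and in WT senescent libraries 46010 to 48300 CPM. KO libraries ranged from 59160 to 71980 CPM in control and from 38700 to 46440 CPM in senescent cells. Single fibroblast markers went both ways, with 3 called higher and 3 lower in WT and 1 higher and 3 lower in KO senescent cells. Summed keratinocyte markers were higher in senescent libraries without overlap, at 2.84 to 4.97 CPM against 7.88 to 10.1 CPM in WT and 2.48 to 4.07 CPM against 9.07 to 9.50 CPM in KO cells. The same was seen for adipocyte markers, at 8.53 to 9.80 CPM against 16.4 to 23.2 CPM in WT and 6.87 to 8.69 CPM against 15.9 to 19.8 CPM in KO cells. Muscle markers were at 44.9 to 58.9 CPM in WT control and 14.1 to 15.8 CPM in WT senescent libraries, and overlapped between the conditions in KO cells. Melanocyte markers overlapped between the conditions in WT cells and were at most 10.2 CPM in KO control and 11.1 to 12.2 CPM in KO senescent libraries. Macrophage and endothelial sums overlapped between the conditions in both genotypes. The chondrocyte and fibroblast sums were thus lower, and the keratinocyte and adipocyte sums higher, in the libraries in which the histone cluster genes were higher, and their part in the result was not tested.

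Properties of the gene models were set beside the change. Of the 39 members with a stem-loop, the model of 20 runs at least 100 bases past it and that of 19 ends sooner. Of the first kind 16 were tested and 13 were higher in WT and 15 in KO cells, with medians of 2.21 and 2.38. Of the second kind 12 were tested and 10 were higher in each genotype, with medians of 2.39 and 2.73. Of the members with no stem-loop in the model 11 were tested and 6 were higher in WT and 8 in KO cells, with medians of 1.28 and 2.12. Across the 28 tested genes with a stem-loop, Spearman's rho between the log2 fold change and the number of bases past it was -0.003 in WT and -0.12 in KO cells. This is a description across genes, which are not independent replicates.

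Many members share sequence, and only unique reads were counted. A window held by a gene that overlaps the member, on either strand, was also taken as shared, so the shares do not measure copies alone. For 27 tested members most of the 100-base windows occur in no other gene, and 20 of these were higher in WT and 23 in KO cells. For the 12 tested members with most of their windows shared, 9 and 10 were higher. Counted over the 29 tested members whose exons overlap no other annotated gene, 23 were higher in WT and 24 in KO cells, and none was lower, since Hist1h2ao is not among them.

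Promoters of RefSeq (GRCm38.p6, 250 bases before to 50 after the start) were matched for 54 of the 62 members. The octamer ATTTGCAT, the binding motif of OCT1, was present on either strand in 10 of them (18.5%) and in 1.75% of 27025 promoters. It was found in 6 of 15 H2A and 4 of 13 H2B promoters and in no promoter of the H1, H3 or H4 classes. TATAAA was present in 61.1% against 14.2%, and CCAAT in 83.3% against 37.9%, with 3 of 12 in the H4 class. The E-box CACGTG, the motif bound by BMAL1 with CLOCK, was in 0 of 54 against 7.24%. The run TGANTCA, which is looser than the AP-1 motif TGASTCA (S is G or C), was in 3 (5.56%) against 7.93%. These 3 matches read TGATTCA or TGAATCA, and none read TGASTCA. A match is a description of the window and not a site, and its absence says nothing of the factor. Windows of neighbouring H2A and H2B genes on opposite strands can overlap, so these counts repeat some matches. The octamer of Hist1h2ae is also that of Hist1h2bg, that of Hist1h2ah also that of Hist1h2bk, and Hist1h2ai and Hist1h2bl share their TGANTCA match. The promoter of Hist1h2ac is shown because Hist1h2bc, the most abundant H2B gene, starts 251 bases away on the other strand. No promoter was matched for Hist1h2bc, and whether it shares that of Hist1h2ac was not tested. The window shown lies at chr13:23683910-23684209, minus strand, and the octamer is in capitals.
Hist1h2ac promoter: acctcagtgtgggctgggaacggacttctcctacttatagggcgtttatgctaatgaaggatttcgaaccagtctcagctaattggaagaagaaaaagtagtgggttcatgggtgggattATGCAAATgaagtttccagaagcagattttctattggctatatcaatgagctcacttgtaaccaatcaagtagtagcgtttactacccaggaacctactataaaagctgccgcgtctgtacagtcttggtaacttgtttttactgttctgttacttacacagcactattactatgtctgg
The genes on its sides differed widely in level. Per kilobase of exon, Hist1h2ac had levels of 0.133 and 0.936 CPM in control and senescent WT cells, and Hist1h2bc had 35.9 and 88.7 CPM. The log2 fold change of Hist1h2ac was 2.78 ± 0.40 in WT and 2.41 ± 0.35 in KO cells, and that of Hist1h2bc was 1.30 and 1.38. Among the 62 members, 12 H2A genes form such a head-to-head pair with an H2B member, with 173 to 302 bases between them. For Hist3h2a the H2B member is the pseudogene Hist3h2bb-ps.

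The 23 members that were not tested had at most 68 reads each over the 12 libraries and held 298 reads in control and 363 in senescent libraries. There were 15 with more reads in senescent libraries, 7 with more in control libraries and 1 with equal numbers, which at this depth gives no direction for a single gene. Hist1h4j had 16 reads in control and 52 in senescent libraries, and Hist1h2aj had 17 and 2, both chosen after their values were seen. The 1 read of the testis-specific Hist1h2ba lay in a KO senescent library, and 0 reads in 11 libraries allow up to 3 reads each.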

How the data were processed

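RNA of 12 libraries was selected with oligo(dT), sequenced in read pairs and deposited as raw counts. Per the labels and methods, the authors used bcl2fastq 2.17, Trimmomatic 0.36, STAR 2.5.2b on GRCm38 and featureCounts, keeping unique reads in exons. Strand use and annotation release are not given in the sources used here. The deposited counts were joined by gene ID, given symbols from GENCODE M21 (48970 of 49315 IDs matched) and analysed in R 4.3.3 with edgeR 4.0.16 (filterByExpr, TMM, robust quasi-likelihood fit, 17416 genes, Benjamini-Hochberg adjustment) and DESeq2 1.42.0 as an alternative. SE is the log2 fold change over the root of F. The fits were tested on simulated data. Members, lists and alternatives were chosen with earlier results of these data known. Named genes are the 3 members of each class with the highest mean CPM, the H1 genes, the 5 largest called changes per direction and senescence comparison, the 3 largest per direction in the other comparisons, and the 2 largest of each other list with a fixed panel. Replicate numbers did not pair the libraries (correlations of deviations -0.125 to 0.108). Intervals of 95% are the estimate ± 1.96 SE. Hist1h2bm and Hist1h2bh had no row and are not analysed here.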

Additional observations from a re-analysis of the deposited data

Results flagged for a closer look

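By adjusted p alone, 4 of the 39 tested histone cluster genes rose more in KO than in WT cells in the interaction term of edgeR's fit. The share of all 17416 genes in that direction was 9.24%, which is close. Of the 4 genes, 3 also passed the fold threshold. The KO change exceeded the WT change by 1.58 on the log2 scale for Hist1h3b, by 1.86 for Hist1h1b, by 1.62 for Hist1h2ab and by 0.71 for Hist1h4i. For Hist1h3b all 3 KO senescent libraries lay above all 3 WT senescent libraries, and without any single library its adjusted p stayed under 0.05. The calls of Hist1h1b and Hist1h2ab were lost in some fits that left out a library, as given with their values. For Hist1h1b the KO control libraries were low, with 7, 5 and 5 reads against 14, 8 and 23 in WT control libraries. Only the WT and KO tables as deposited could be compared, so genotype and the handling of each set of cells cannot be told apart.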

How the results depend on the processing

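The counts of histone cluster genes higher in senescent cells stayed within 1.5 times their values of 29 (WT) and 33 (KO) under every alternative run, at 26 to 31 in WT and 30 to 35 in KO cells where all tested members were counted, and at 23 and 24 over the members whose exons overlap no other gene. The count lower in senescent cells was 2 in both genotypes without the low-count filter and with DESeq2, since Hist1h2ap joined Hist1h2ao, and 0 over the members whose exons overlap no other gene. Leaving out 1 library gave 1 to 2 lower members in WT senescent cells (2 without WT control replicate 3), 1 to 3 higher members for the interaction (1 without WT control replicate 3 or KO control replicate 2), 0 to 1 higher and 0 to 1 lower members in KO against WT control cells, and 0 to 2 higher and 0 to 1 lower members in KO against WT senescent cells. A fit of only the 2 groups compared called 0 members lower in KO control cells, and adjusted p alone gave 3 higher members in KO senescent against WT senescent cells. For the interaction, 1 of the replication-independent histones was lower with a replicate block, and 0 to 1 were when a library was left out. Of the histone mRNA synthesis and 3′ processing genes 2 were lower in KO senescent cells with library totals in place of TMM. The replicate numbers only name the libraries, and a replicate block gave 28 and 31 higher members in WT and KO senescent cells. The cause of these shifts was not tested, apart from smaller samples and fewer members.

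No named gene reversed its direction. The KO interaction call of Hist1h2ab did not survive leaving out any of 8 libraries: replicates 1 and 3 of WT control, 1 and 2 of WT senescent, 2 and 3 of KO control and 1 and 3 of KO senescent. The lower level of Hist1h4k in KO senescent cells was lost without WT senescent replicate 3 (adjusted p = 0.128, edgeR) or KO senescent replicate 2 or 3 (0.0563 and 0.085). The log2 fold change of Hist1h1a in WT cells was 3.13 (adjusted p = 0.00618, edgeR) without WT control replicate 1, which holds 10 of its 12 reads in WT control libraries. That of Hist1h3b in KO against WT senescent cells was 0.99 without KO senescent replicate 3, and that of Hist3h2a in KO cells 0.98 without KO control or KO senescent replicate 3, both just under the fold threshold. That of Hist1h1b in WT cells was 0.89 without WT control replicate 2. Depth limits the low members: 3 reads are 0.101 to 0.135 CPM, and 23 members were too low to test.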
